A study of Mus musculus with 28 samples.

Results

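Genes of hepatic stellate cells and of the extracellular matrix were followed in the livers of mice on 5 diets. The set held 37 genes, chosen by name: collagens, enzymes that cross-link or cleave matrix, inhibitors of those enzymes, cytoskeletal proteins, growth factors and receptors of stellate cells, proteoglycans and matrix glycoproteins. A gene was found through the array probes that carry its name, and its brightest probe over the 28 livers gave its value. Of the 37 genes, 36 were bright enough to be tested, out of 22241 genes tested on the array. The only gene left out was Lox, lysyl oxidase, whose signal was well above background on 2 of the 28 arrays.

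Stellate cells lie between hepatocytes and the sinusoids and store vitamin A as retinyl esters. On injury they lose this store, become contractile cells rich in smooth muscle actin, and are the main source of scar collagen in the liver, under the control of transforming growth factor beta and platelet-derived growth factor. The matrix they lay down holds fibrils of collagens I and III, basement membrane collagen IV, and proteoglycans that bind the fibrils. Cross-linking by lysyl oxidases stabilises it, while matrix metalloproteinases degrade it and tissue inhibitors of metalloproteinases restrain them.

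The mice were C57/6J males, 7 weeks old at the start and 33 weeks old when the liver was taken after 26 weeks of feeding. HQR mice ate a high fat diet with 0.2% quercetin and 0.2% resveratrol (2 g of each per kg of diet), HQ mice a high fat diet with 0.4% quercetin (4 g per kg) and HR mice a high fat diet with 0.4% resveratrol (4 g per kg). HFD mice ate the high fat diet alone and SD mice a standard diet. Quercetin is a plant flavonol and resveratrol a plant stilbene. RNA of 6 HQR, 5 HQ, 6 HR, 6 HFD and 5 SD livers, 1 array per mouse, was measured on a 1-colour Agilent array, after 2 of the 30 RNA samples of the experiment had been left out for degradation. The composition of the high fat diet and the histology of the livers were not given in the sources used here. The whole liver was sampled, so fewer cells of a type and less RNA per cell cannot be told apart.

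Levels are log2 processed signals minus the array's 75th percentile, and differences between groups are differences of mean log2 level, with the standard error from limma. A level compares livers for 1 gene and not 1 gene with another, because probes differ in brightness. The 75th percentile signal lay between 173 and 557 intensity units, and 59.3% to 82.1% of probes per array were well above background. The 3 arrays of 1 slide (HQR replicate 4, HR replicate 6 and HFD replicate 5) had at least 79.3% of probes above background, against at most 74.3% on the other 8 slides. No spot was saturated. Of the 36 tested genes, 30 were well above background on all 28 arrays. The exceptions were Col15a1 (27 arrays), Col6a2 and Mmp2 (26 each), Fbn1 (23), Thbs1 (18) and Col6a3 (12).

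Among markers that could be tested, 8 of 8 of hepatocytes and 12 of 13 further ones of stellate cells were well above background on all 28 arrays. Among them were Lrat, the enzyme that makes retinyl esters, Reln and Cygb. Gfap, another stellate cell marker, was above background on 22 arrays. So were 5 of 6 lymphocyte, 4 of 5 erythrocyte and 6 of 7 bile duct cell markers on all 28 arrays. Of adipocyte and mesothelium markers it was 1 of 4 each. With 59.3% to 82.1% of all probes above background, detection of markers does not identify the tissue.

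Promoters of 3 genes are printed because these genes carry the patterns among livers described below: Col1a2 and Col3a1, whose levels went together, and Acta2, whose level spread most. Each sequence runs from 250 bases before to 30 bases after the RefSeq start (build GRCm38.p6, credited to RefSeq). Capitals mark 3 motifs, searched on both strands: the CCAAT box, the GC box (GGGCGG) and the core of the TATA box (TATAA).
Acta2 promoter (chr19:34255344-34255623, minus strand): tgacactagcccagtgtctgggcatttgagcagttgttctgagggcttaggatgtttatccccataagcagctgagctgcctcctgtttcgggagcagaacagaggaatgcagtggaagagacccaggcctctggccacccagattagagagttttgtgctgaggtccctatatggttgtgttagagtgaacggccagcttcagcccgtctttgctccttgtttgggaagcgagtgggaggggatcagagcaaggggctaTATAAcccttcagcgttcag
Col1a2 promoter (chr6:4505368-4505647, plus strand): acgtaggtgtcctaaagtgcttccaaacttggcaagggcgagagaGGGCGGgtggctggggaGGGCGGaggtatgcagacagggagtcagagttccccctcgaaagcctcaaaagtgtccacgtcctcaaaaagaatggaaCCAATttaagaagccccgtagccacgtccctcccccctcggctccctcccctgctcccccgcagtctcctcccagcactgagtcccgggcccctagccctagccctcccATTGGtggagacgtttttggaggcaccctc
Col3a1 promoter (chr1:45311288-45311567, plus strand): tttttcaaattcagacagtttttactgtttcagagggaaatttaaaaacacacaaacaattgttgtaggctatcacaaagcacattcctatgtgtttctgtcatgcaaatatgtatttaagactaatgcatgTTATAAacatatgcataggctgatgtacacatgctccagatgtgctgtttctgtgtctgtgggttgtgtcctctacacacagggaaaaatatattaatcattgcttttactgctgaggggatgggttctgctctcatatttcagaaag
The Acta2 window held TATAA 11 bases after the annotated start. The Col1a2 window held GGGCGG 205 and 188 bases before the start, CCAAT 109 bases before it, and CCAAT on the opposite strand at the start itself. The Col3a1 window held TATAA 117 bases before the start, overlapping the same motif on the other strand at 118 bases. Of the 37 genes, 24 matched the promoter table, with 27 promoters. CCAAT was in 10 of the 27 (37.0%) and in 36.1% of all 32851 promoters, GGGCGG in 15 (55.6%) and 34.7% of all, and TATAA in 5 (18.5%) and 24.04% of all. The CArG box (CCWWWWWWGG, with W for A or T) was also searched. An exact match was in 0 of the 27 and in 1.56% of all, and near matches were not counted. A motif match is a description of the letters only.

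Array probes other than the brightest offered a second reading of some genes, and 3 of them, well above background on all 28 arrays, are printed because results below refer to them (build mm9, from the array files; all lower case).
Acta2 second probe (chr19:34322995-34326249, minus strand, from first to last base across an intron): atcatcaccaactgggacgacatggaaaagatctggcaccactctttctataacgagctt
Mmp14 second probe (chr14:55058775-55058834, plus strand): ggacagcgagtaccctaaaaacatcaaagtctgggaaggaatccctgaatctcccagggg
Col1a1 second probe (chr11:94812052-94812111, plus strand): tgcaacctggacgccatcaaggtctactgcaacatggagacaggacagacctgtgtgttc
Over the 28 livers the second probe and the brightest probe of the same gene had a Pearson's r of 0.60 for Acta2, 0.42 for Mmp14 and 0.64 for Col1a1. Among all 25 further probes of 20 of the genes, r lay between -0.56 and 0.94 with a median of 0.42.

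No gene of the set passed an adjusted p of 0.05 in any of the 13 tests among the diets. In the array as a whole, 0.112% of genes passed in HFD against SD (25 of 22241), 0% in HQ against HFD (0), 0.00899% in HR against HFD (2) and 0% in HQR against HFD (0). The test of any difference among the 5 groups called 0.103% of all genes (23) and 0 of the 36, with 1 of 36 and 3.96% of all genes at an unadjusted p under 0.05. Its smallest adjusted p in the set was 0.914, for Mmp14. The 95% interval of a difference between 2 groups had a half-width of 0.54 at the median gene in HFD against SD, so smaller differences lay within the error at that gene.

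**Figure D1:**
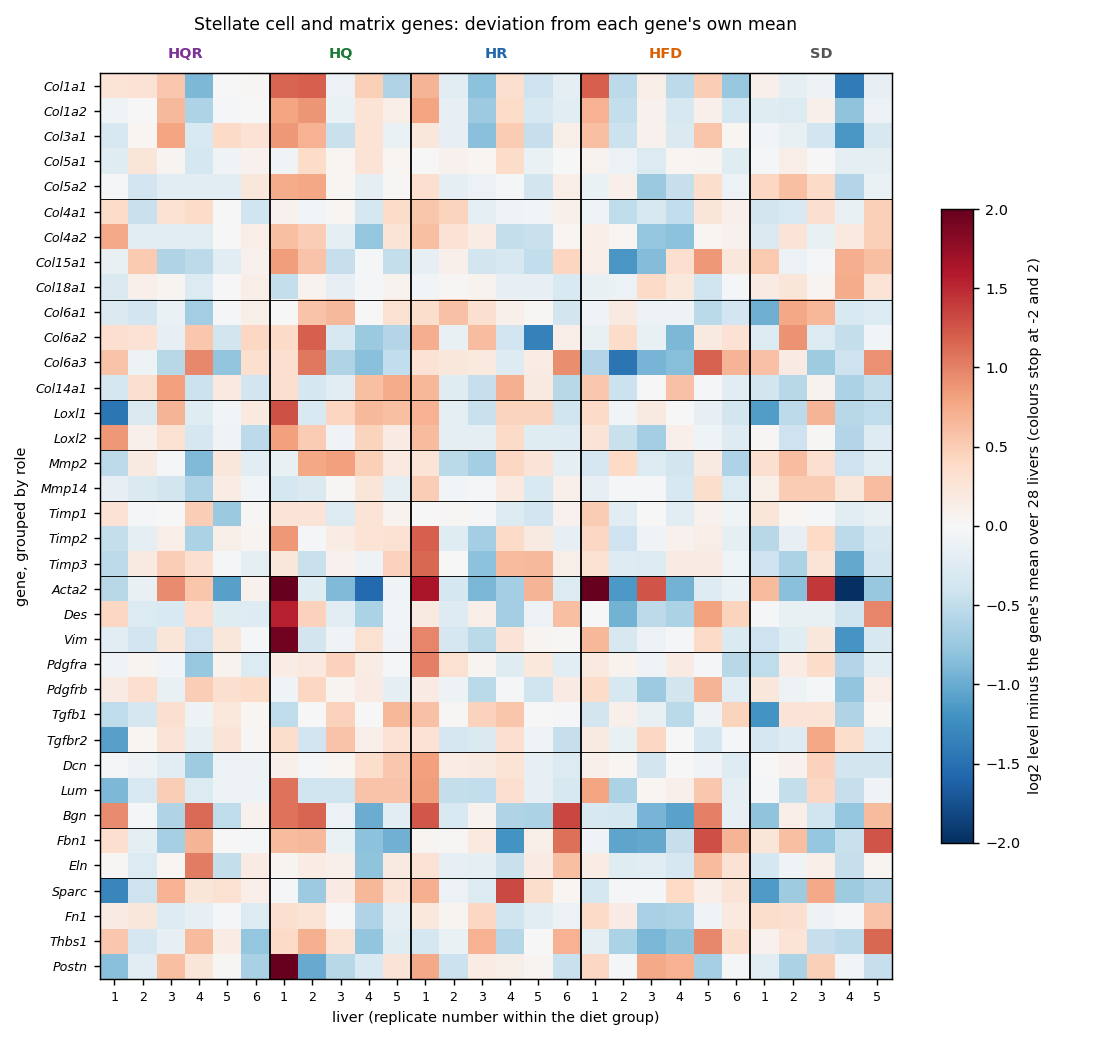
Deviation of each of the 36 tested genes (rows, grouped by role) from its own mean over 28 livers, on the log2 scale, in each liver (columns, by diet group and replicate number). Whole columns are redder or bluer, as for HQ replicate 1 (29 of 36 genes above their own mean), HR replicate 1 (32) and SD replicate 4 (5).

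Fibrillar collagens form the scar and bear its tension. Their levels differed more among livers of a diet than between diets. Col1a1 was at 0.40, 1.44 and 1.84 (lowest, median and highest log2 level) in the 6 HQR livers and at 2.45, 2.49, 1.17, 1.78 and 0.70 in the 5 HQ livers. Col1a1 stood at 0.47, 1.09 and 1.97 in the 6 HR livers and at 0.54, 1.10 and 2.48 in the 6 HFD livers (lowest, median and highest), and at 1.40, 1.12, 1.19, -0.11 and 1.14 in the 5 SD livers. The 3 highest Col1a1 levels were in HQ replicate 2, HFD replicate 1 and HQ replicate 1, and the lowest was in SD replicate 4. All 5 groups overlapped. The HQ minus HFD difference of Col1a1 was 0.42 ± 0.37 (SE, 95% interval -0.34 to 1.19, adjusted p = 1.00), and the HFD minus SD difference 0.35 ± 0.37 (SE, 95% interval -0.42 to 1.11, adjusted p = 0.958). With 1 array left out, the first was between 0.23 without HQ replicate 2 and 0.68 without HQ replicate 5, and the second between 0.09 without SD replicate 4 and 0.50 without HFD replicate 6. The second Col1a1 probe gave 0.38 and -0.13 for these differences.

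Col3a1 was at 3.26, 3.76 and 4.37 (lowest, median and highest log2 level) in the 6 HQR livers and at 4.46, 4.28, 3.14, 3.87 and 3.45 in the 5 HQ livers. Col3a1 stood at 2.75, 3.57 and 4.09 in the 6 HR livers and at 3.16, 3.65 and 4.20 in the 6 HFD livers (lowest, median and highest), and at 3.54, 3.44, 3.20, 2.43 and 3.28 in the 5 SD livers. The single lowest Col3a1 level was again in SD replicate 4. Col3a1, the chain of collagen III, averaged 3.73 ± 0.43 in HQR, 3.84 ± 0.55 in HQ, 3.49 ± 0.49 in HR, 3.68 ± 0.42 in HFD and 3.17 ± 0.44 in SD livers (SD). Its difference was 0.51 ± 0.28 (SE, 95% interval -0.06 to 1.08, adjusted p = 0.865) for HFD minus SD and 0.56 ± 0.28 (SE, 95% interval -0.02 to 1.13, adjusted p = 0.794) for HQR minus SD. Without SD replicate 4 these differences were 0.32 and 0.37. In 5 of 6 HFD livers and 6 of 6 HQR livers the level was above the SD mean.

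Col1a2, the second chain of collagen I, averaged 2.12 ± 0.40 in HQR, 2.53 ± 0.43 in HQ, 2.09 ± 0.54 in HR, 2.09 ± 0.44 in HFD and 1.87 ± 0.34 in SD livers (SD). Its HQ minus HFD difference was 0.44 ± 0.26 (SE, 95% interval -0.11 to 0.98, adjusted p = 1.00). Col5a2, of collagen V, which regulates the width of collagen I fibrils, differed by 0.45 ± 0.23 (SE, 95% interval -0.02 to 0.91, adjusted p = 1.00). Col5a1, its partner, had the smallest spread in the set, an SD of 0.18 over 28 livers, and an HQ minus HFD difference of 0.21 ± 0.13 (SE, 95% interval -0.07 to 0.49, adjusted p = 1.00). Across the 5 fibrillar chains, 5 of 5 were above 0 in HQ against HFD with a median of 0.42. In HR against HFD 2 of 5 were above 0 with a median of 0.00, and in HQR against HFD all 5 lay between 0.03 and 0.05.

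**Figure D2:**
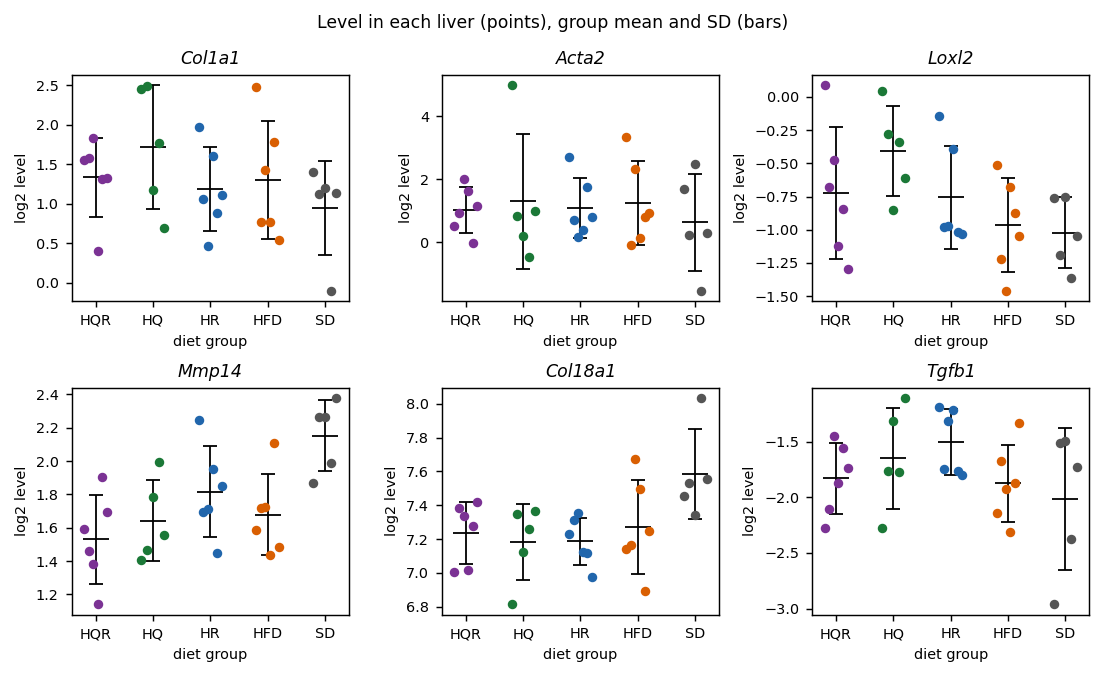
Log2 level of 6 genes in each liver (points) with group mean and SD (bars), by diet group on the horizontal axis. Acta2 in HQ replicate 1 stands at 5.01, and the SD livers have the highest mean of Mmp14 (2.15) and of Col18a1 (7.58).

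The chains of collagen I and collagen III went together from liver to liver. Over 28 livers Col1a1 and Col1a2, which assemble into the same triple helix, had Pearson's r = 0.91 and Spearman's rho = 0.88 (permutation p = 1e-05 for each, the smallest that 100000 permutations can give). Without the 2 livers farthest from the median of Col1a1 (SD replicate 4 and HQ replicate 2), r was 0.88. It was 0.90 after the group means had been subtracted and 0.92 after the slide means had been subtracted. For Col1a1 and Col3a1, r was 0.84 and rho 0.78, r without those 2 livers 0.78, within groups 0.83 and within slides 0.91 (permutation p = 1e-05 for r and 2e-05 for rho).

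Other chain pairs were looser. Col4a1 and Col4a2, the basement membrane pair, had r = 0.51 and rho = 0.48 (permutation p = 0.00559 and 0.0113). Without the farthest 2 livers (HR replicate 1 and SD replicate 5) r was 0.42, within groups 0.48 and within slides 0.65. Col5a1 and Col5a2 had r = 0.34 and rho = 0.27 (permutation p = 0.0747 and 0.162), with r = 0.19 without the farthest 2, 0.26 within groups and 0.40 within slides. In collagen VI, Col6a2 and Col6a3 had r = 0.48 and rho = 0.56 (permutation p = 0.0101 and 0.00262), with r = 0.50 without the farthest 2, 0.50 within groups and 0.34 within slides. Col6a1 had r = 0.15 and rho = 0.10 with Col6a2 (permutation p = 0.440 and 0.605) and r = -0.31 and rho = -0.33 with Col6a3 (permutation p = 0.104 and 0.0818). Within slides these were 0.42 and 0.14, and within groups 0.23 and -0.42. Benjamini-Hochberg adjustment of the permutation p of r over these 7 relations gave 3.5e-05 for both Col1a1 relations, 0.0130 for Col4a1 with Col4a2 and 0.0177 for Col6a2 with Col6a3. The other 3 were at 0.105 or above. Col6a2 and Col6a3 were dim, at 26 and 12 arrays above background. Over all 630 pairs of the 36 genes the median r was 0.16, and 68.6% of pairs were above 0.

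**Figure D3:**
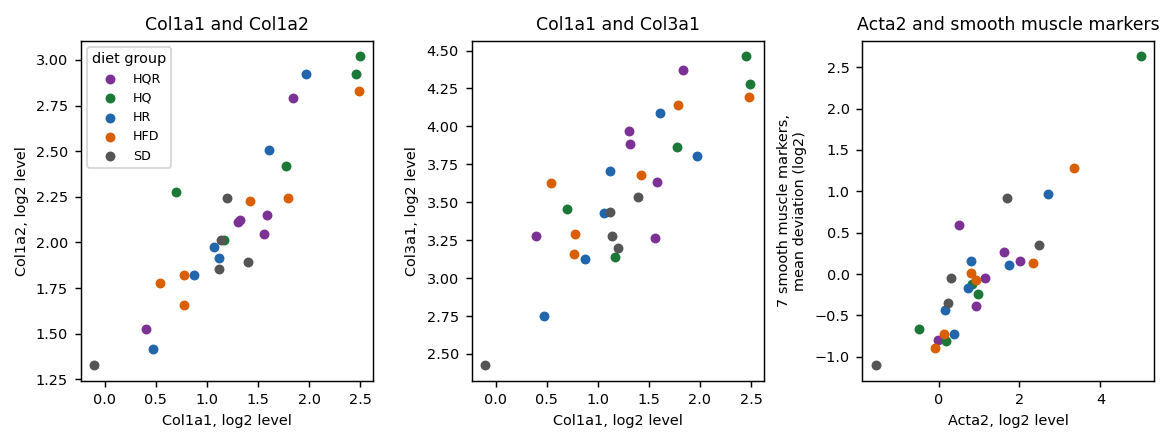
Log2 level of Col1a2 and of Col3a1 against Col1a1, and mean deviation of 7 smooth muscle markers against the level of Acta2, 1 point per liver coloured by diet group. Livers of every diet lie along the same band in the collagen panels, and HQ replicate 1 stands alone at the upper right of the Acta2 panel.

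Basement membrane collagens line the vessels and ducts, and the multiplexins Col15a1 and Col18a1 are their partners. Col18a1, whose C-terminal fragment is endostatin, was lower on average in each high fat group than in SD livers. Col18a1 was at 7.00, 7.31 and 7.42 (lowest, median and highest log2 level) in the 6 HQR livers and at 6.81, 7.35, 7.12, 7.26 and 7.36 in the 5 HQ livers. Col18a1 stood at 6.98, 7.18 and 7.36 in the 6 HR livers and at 6.89, 7.21 and 7.67 in the 6 HFD livers (lowest, median and highest), and at 7.46, 7.53, 7.34, 8.03 and 7.56 in the 5 SD livers. The highest level was SD replicate 4 and the lowest HQ replicate 1, and the groups overlapped. Differences from SD were -0.35 ± 0.16 (SE, 95% interval -0.67 to -0.03, adjusted p = 0.733) in HQR, -0.40 ± 0.16 (SE, 95% interval -0.74 to -0.07, adjusted p = 1.00) in HQ and -0.40 ± 0.16 (SE, 95% interval -0.72 to -0.08, adjusted p = 0.636) in HR livers, and -0.32 ± 0.16 (SE, 95% interval -0.63 to 0.00, adjusted p = 0.822) in HFD livers, the last of which was -0.20 without SD replicate 4. These comparisons share the 5 SD arrays. For the mean of the 4 high fat groups the difference was -0.37 ± 0.13 (SE, 95% interval -0.63 to -0.11, adjusted p = 0.366). The second Col18a1 probe, at r = 0.79 with the first, gave -0.48 for HQR minus SD and -0.57 for HFD minus SD. On each of the 4 slides that held both diets, Col18a1 was lower in the HFD than in the SD liver, with differences between -0.37 and -0.31. Each of these slides held a single liver of each diet. Against SD, 2 of 8 hepatocyte markers were above 0 in HFD, 0 in HQ, 0 in HR and 1 in HQR livers. Their medians were -0.35, -0.44, -0.57 and -0.33. In SD replicate 4, the liver highest in Col18a1, their mean deviation was 1.07. Over 28 livers Col18a1 had r between -0.60 (Vim) and 0.27 (Mmp14) with the other genes of the set. The part of hepatocytes in the level of Col18a1 was not tested.

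Col4a1 averaged -0.87 ± 0.38 in HQR, -0.89 ± 0.26 in HQ, -0.78 ± 0.31 in HR, -1.08 ± 0.31 in HFD and -0.91 ± 0.38 in SD livers (SD). Its difference from HFD was 0.30 ± 0.20 (SE, 95% interval -0.10 to 0.71, adjusted p = 1.00) in HR and 0.19 ± 0.21 (SE, 95% interval -0.24 to 0.62, adjusted p = 1.00) in HQ livers. The HQ difference lay between 0.10 without HQ replicate 5 and 0.28 without HQ replicate 4. A second Col4a1 probe gave 0.50 for HR minus HFD and 0.49 for HQ minus HFD. Col15a1 had an HQR minus SD difference of -0.49 ± 0.31 (SE, 95% interval -1.14 to 0.16, adjusted p = 0.927). A second Col15a1 probe, at r = 0.50 with the first and above background on 12 arrays, gave 0.25, of the opposite sign. Col4a2, the partner of Col4a1, averaged -0.70 ± 0.38 in HQR, -0.65 ± 0.57 in HQ, -0.70 ± 0.42 in HR, -0.95 ± 0.45 in HFD and -0.64 ± 0.31 in SD livers (SD). In HFD against SD, 4 of 4 basement membrane chains and multiplexins were below 0, between -0.42 and -0.17.

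Microfibrils of collagen VI and the fibril-associated collagen XIV sit on the surface of the fibrils. Col6a1 averaged -1.33 ± 0.29 in HQR, -0.79 ± 0.31 in HQ, -0.93 ± 0.33 in HR, -1.26 ± 0.25 in HFD and -1.12 ± 0.74 in SD livers (SD), with a difference from HFD of 0.48 ± 0.25 (SE, 95% interval -0.03 to 0.99, adjusted p = 1.00) in HQ and 0.34 ± 0.24 (SE, 95% interval -0.15 to 0.82, adjusted p = 1.00) in HR livers. Col6a3 was above background on 2 of 6 HQR, 1 of 5 HQ, 4 of 6 HR, 2 of 6 HFD and 3 of 5 SD arrays. It averaged -4.28 ± 0.67 in HQR, -4.46 ± 0.79 in HQ, -4.09 ± 0.38 in HR, -4.68 ± 1.03 in HFD and -4.24 ± 0.68 in SD livers (SD). Its HR minus HFD difference was 0.58 ± 0.41 (SE, 95% interval -0.25 to 1.42, adjusted p = 1.00). It was 0.36 without HFD replicate 2 and 0.88 without HFD replicate 5. Col14a1 averaged 1.33 ± 0.50 in HQR, 1.52 ± 0.48 in HQ, 1.35 ± 0.56 in HR, 1.38 ± 0.41 in HFD and 0.91 ± 0.27 in SD livers (SD), and its HFD minus SD difference was 0.47 ± 0.28 (SE, 95% interval -0.10 to 1.03, adjusted p = 0.891). Col6a2 averaged -3.06 ± 0.36 in HQR, -3.25 ± 0.80 in HQ, -3.31 ± 0.76 in HR, -3.29 ± 0.46 in HFD and -3.27 ± 0.55 in SD livers (SD). A second Col14a1 probe, at r = -0.41 with the first, gave -0.46 for the same comparison, and with the mean of its probes the difference was 0.0009.

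Lysyl oxidases cross-link collagen and elastin. Loxl2 had the smallest p of the set in HQ against HFD. Loxl2 was at -1.30, -0.76 and 0.09 (lowest, median and highest log2 level) in the 6 HQR livers and at 0.04, -0.28, -0.85, -0.34 and -0.61 in the 5 HQ livers. Loxl2 stood at -1.03, -0.97 and -0.15 in the 6 HR livers and at -1.46, -0.96 and -0.51 in the 6 HFD livers (lowest, median and highest), and at -0.76, -1.19, -0.75, -1.36 and -1.04 in the 5 SD livers. Every HQ liver was above the HFD mean, yet the groups overlapped. The difference was 0.56 ± 0.23 (SE, 95% interval 0.08 to 1.04, adjusted p = 1.00), with an unadjusted p = 0.0246. For HQR minus HFD it was 0.24 ± 0.22 (SE, 95% interval -0.21 to 0.70, adjusted p = 0.988), and it was 0.08 without HQR replicate 1 and 0.36 without HQR replicate 6. A second Loxl2 probe gave 0.39 for HQ minus HFD and 0.22 for HQR minus HFD. Loxl1 averaged -2.01 ± 0.71 in HQR, -1.29 ± 0.56 in HQ, -1.73 ± 0.49 in HR, -1.82 ± 0.26 in HFD and -2.22 ± 0.65 in SD livers (SD) and differed by 0.93 ± 0.34 (SE, 95% interval 0.23 to 1.63, adjusted p = 0.908) between HQ and SD livers. Lox, the founding member of the family, was above background only in HR replicate 1 (-2.79) and HFD replicate 5 (-2.40), and the other 26 livers lay between -7.33 and -4.83 without rising above background.

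Mmp14, the membrane-bound metalloproteinase that activates Mmp2 and cleaves fibrillar collagen, had the smallest p of the set in 4 of the 5 comparisons with SD. Mmp14 was at 1.14, 1.53 and 1.91 (lowest, median and highest log2 level) in the 6 HQR livers and at 1.41, 1.47, 1.78, 1.99 and 1.56 in the 5 HQ livers. Mmp14 stood at 1.45, 1.78 and 2.25 in the 6 HR livers and at 1.43, 1.65 and 2.11 in the 6 HFD livers (lowest, median and highest), and at 1.87, 2.27, 2.27, 1.99 and 2.38 in the 5 SD livers. The SD livers held the highest level, and the lowest SD liver lay among the livers of each high fat group. Every HQR and HQ and every HFD liver was below the SD mean, and 5 of 6 HR livers were. The difference from SD was -0.62 ± 0.17 (SE, 95% interval -0.97 to -0.28, adjusted p = 0.217) in HQR, -0.51 ± 0.18 (SE, 95% interval -0.87 to -0.15, adjusted p = 0.842) in HQ, -0.34 ± 0.17 (SE, 95% interval -0.68 to 0.01, adjusted p = 0.895) in HR and -0.48 ± 0.17 (SE, 95% interval -0.82 to -0.13, adjusted p = 0.549) in HFD livers. For the mean of the 4 high fat groups minus SD it was -0.49 ± 0.14 (SE, 95% interval -0.77 to -0.21, adjusted p = 0.197), a fold of 0.71. In that comparison 0.162% of all genes passed (36 of 22241). The second Mmp14 probe gave -0.43 for HQR minus SD and -0.59 for HFD minus SD. Within the 4 slides that held HFD and SD livers the difference lay between -0.89 and -0.26, and within the 3 slides with HQR and SD livers between -0.61 and -0.27. Each of these slides held a single liver of each group, except that HQR replicates 5 and 6 shared a slide. With slide as a random block the HQR minus SD difference was -0.64 ± 0.16 with an adjusted p of 0.0636, the smallest of any gene of the set in any setting tried. No difference of Mmp14 from HFD was as large: it was -0.15 ± 0.16 (SE, 95% interval -0.48 to 0.18, adjusted p = 0.988) in HQR livers, between -0.22 without HQR replicate 5 and -0.06 without HFD replicate 5, and 0.0093 with the mean of all probes.

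Mmp2, a gelatinase made by stellate cells, was highest on average in HQ livers. Mmp2 was at -3.96, -3.21 and -2.86 (lowest, median and highest log2 level) in the 6 HQR livers and at -3.23, -2.31, -2.27, -2.61 and -2.90 in the 5 HQ livers. Mmp2 stood at -3.76, -3.06 and -2.68 in the 6 HR livers and at -3.70, -3.39 and -2.68 in the 6 HFD livers (lowest, median and highest), and at -2.76, -2.46, -2.74, -3.50 and -3.30 in the 5 SD livers. The 3 highest levels were those of HQ replicates 3 and 2 and SD replicate 2. The difference was 0.59 ± 0.26 (SE, 95% interval 0.07 to 1.12, adjusted p = 1.00) between HQ and HFD livers and -0.63 ± 0.26 (SE, 95% interval -1.15 to -0.10, adjusted p = 1.00) between HQR and HQ livers. It was above background on 5 of 6 HQR, 5 of 5 HQ, 5 of 6 HR, 6 of 6 HFD and 5 of 5 SD arrays.

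The inhibitors of metalloproteinases showed no difference past the threshold. Timp1, which rises with stellate cell activation in many models, averaged -0.73 ± 0.42 in HQR, -0.61 ± 0.23 in HQ, -0.83 ± 0.18 in HR, -0.72 ± 0.27 in HFD and -0.76 ± 0.18 in SD livers (SD), and its HFD minus SD difference was 0.03 ± 0.18 (SE, 95% interval -0.34 to 0.40, adjusted p = 0.982), with either sign when 1 array was left out, between -0.07 without HFD replicate 1 and 0.10 without SD replicate 1. Timp2 averaged 1.25 ± 0.33 in HQR, 1.72 ± 0.34 in HQ, 1.52 ± 0.64 in HR, 1.41 ± 0.29 in HFD and 1.18 ± 0.38 in SD livers (SD). Timp3, which binds to the matrix, was 0.56 ± 0.68 in HR and -0.17 ± 0.47 in SD livers (SD), a difference of 0.73 ± 0.27 (SE, 95% interval 0.17 to 1.28, adjusted p = 0.587).

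Acta2, alpha smooth muscle actin, marks activated stellate cells and also the smooth muscle of vessel walls. It had the widest spread of the 36 genes, an SD of 1.30 over 28 livers. Acta2 was at -0.02, 1.04 and 2.01 (lowest, median and highest log2 level) in the 6 HQR livers and at 5.01, 0.82, 0.19, -0.48 and 0.97 in the 5 HQ livers. Acta2 stood at 0.16, 0.76 and 2.70 in the 6 HR livers and at -0.09, 0.87 and 3.35 in the 6 HFD livers (lowest, median and highest), and at 1.70, 0.24, 2.48, -1.55 and 0.30 in the 5 SD livers. HQ replicate 1 was far above the other HQ livers, and SD replicate 4 had the lowest level of all. The HFD minus SD difference was 0.61 ± 0.79 (SE, 95% interval -1.01 to 2.23, adjusted p = 0.958) and the HQ minus HFD difference 0.06 ± 0.79 (SE, 95% interval -1.57 to 1.68, adjusted p = 1.00), with the widest intervals of the set. Both values moved with single arrays: the HFD minus SD difference lay between 0.06 without SD replicate 4 and 1.07 without SD replicate 3, and the HQ minus HFD difference between -0.87 without HQ replicate 1 and 0.50 without HQ replicate 4. The second Acta2 probe gave 1.15 in HQ replicate 1 and between -0.21 and 0.52 in the other HQ livers. Another probe of Acta2, at r = 0.94 with the brightest and above background on 18 arrays, gave 0.99 in HQ replicate 1 and between -6.10 and -4.22 in the others.

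Markers of vascular smooth muscle moved with Acta2. Over 28 livers Acta2 had r = 0.97 with Cnn1 (calponin), 0.89 with Myl9, 0.87 with Myh11 (smooth muscle myosin), 0.79 with Lmod1, 0.77 with Tagln, 0.32 with Actg2 and 0.02 with Smtn, given as a description of these arrays. The mean deviation of these 7 markers was 2.63 in HQ replicate 1 and at most -0.12 in the other HQ livers. Their summed linear level ranged over 8.55 to 36.45 in HQR, 8.49 to 95.7 in HQ, 10.1 to 26.9 in HR, 8.43 to 31.9 in HFD and 8.02 to 25.4 in SD livers. All 7 markers could be tested, and 6 were well above background on all 28 arrays. Their part in the levels of Acta2 was not tested.

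Vim, the intermediate filament of mesenchymal cells, averaged 1.83 ± 0.29 in HQR, 2.27 ± 0.92 in HQ, 1.99 ± 0.53 in HR, 1.98 ± 0.39 in HFD and 1.54 ± 0.51 in SD livers (SD). HQ replicate 1 was at 3.86 and the other HQ livers between 1.55 and 2.22. Its HQ minus SD difference was 0.73 ± 0.34 (SE, 95% interval 0.03 to 1.43, adjusted p = 1.00), and 0.33 without HQ replicate 1. Des, desmin, the classical stellate cell filament of rodents, averaged -3.06 ± 0.33 in HQR, -2.79 ± 0.85 in HQ, -3.03 ± 0.44 in HR, -3.15 ± 0.68 in HFD and -2.96 ± 0.53 in SD livers (SD) and had an HFD minus SD difference of -0.19 ± 0.34 (SE, 95% interval -0.89 to 0.51, adjusted p = 0.958), which lay between -0.38 without HFD replicate 5 and 0.04 without SD replicate 5.

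No ligand or receptor of stellate cell activation passed in any comparison. Tgfb1, transforming growth factor beta 1, had the smallest p of the set in HR against HFD. Tgfb1 was at -2.27, -1.80 and -1.45 (lowest, median and highest log2 level) in the 6 HQR livers and at -2.28, -1.76, -1.31, -1.77 and -1.11 in the 5 HQ livers. Tgfb1 stood at -1.80, -1.53 and -1.19 in the 6 HR livers and at -2.31, -1.90 and -1.33 in the 6 HFD livers (lowest, median and highest), and at -2.96, -1.51, -1.49, -2.37 and -1.73 in the 5 SD livers. All 6 HR livers were above the HFD mean and the groups overlapped. The difference was 0.37 ± 0.24 (SE, 95% interval -0.13 to 0.87, adjusted p = 1.00). Tgfbr2, its type II receptor, averaged -0.99 ± 0.50 in HQR, -0.69 ± 0.36 in HQ, -0.97 ± 0.34 in HR, -0.87 ± 0.27 in HFD and -0.83 ± 0.49 in SD livers (SD), and 2 further probes had r = -0.36 and -0.56 with the brightest. Pdgfrb, the beta receptor for platelet-derived growth factor and a stellate cell marker, had the smallest p in HQR against HFD, with 2.90 ± 0.22 in HQR, 2.71 ± 0.24 in HQ, 2.52 ± 0.29 in HR, 2.55 ± 0.52 in HFD and 2.53 ± 0.40 in SD livers (SD). Its difference was 0.35 ± 0.21 (SE, 95% interval -0.08 to 0.78, adjusted p = 0.988), and between 0.23 without HFD replicate 3 and 0.51 without HFD replicate 5. Pdgfra averaged -1.33 ± 0.31 in HQR, -0.97 ± 0.17 in HQ, -0.98 ± 0.46 in HR, -1.20 ± 0.27 in HFD and -1.32 ± 0.41 in SD livers (SD).

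Of the proteoglycans, Dcn (decorin), which binds collagen fibrils and transforming growth factor beta, averaged 6.00 ± 0.25 in HQR, 6.41 ± 0.24 in HQ, 6.38 ± 0.38 in HR, 6.12 ± 0.18 in HFD and 6.18 ± 0.35 in SD livers (SD). Each HQR liver was below the HQ mean, and the HQR minus HQ difference was -0.41 ± 0.19 (SE, 95% interval -0.79 to -0.02, adjusted p = 1.00). In the 15 alternative settings other than leaving out 1 array it lay between -0.50 and -0.14. A second Dcn probe, at r = 0.22 with the first, gave 0.07 for HQ minus HFD and -0.01 for HQR minus HFD. Lum (lumican) averaged -0.92 ± 0.45 in HQR, -0.44 ± 0.66 in HQ, -0.77 ± 0.53 in HR, -0.61 ± 0.51 in HFD and -0.85 ± 0.36 in SD livers (SD), and its HQR minus HFD difference was -0.31 ± 0.29 (SE, 95% interval -0.90 to 0.28, adjusted p = 0.988), between -0.45 without HFD replicate 2 and -0.17 without HQR replicate 1. Bgn (biglycan) spread widely, with an SD of 0.76 over 28 livers. It averaged -1.79 ± 0.73 in HQR, -1.78 ± 0.93 in HQ, -1.78 ± 0.89 in HR, -2.27 ± 0.74 in HFD and -2.21 ± 0.62 in SD livers (SD) and differed from HFD by 0.48 ± 0.43 (SE, 95% interval -0.42 to 1.37, adjusted p = 0.988) in HQR and 0.49 ± 0.43 (SE, 95% interval -0.40 to 1.38, adjusted p = 1.00) in HR livers. With 1 array left out, the HQR difference lay between 0.28 without HQR replicate 4 and 0.74 without HFD replicate 5, and the HR difference between 0.26 without HR replicate 6 and 0.75 without HFD replicate 5. Its 3 highest levels over all livers were in HR replicates 6 and 1 and in HQ replicate 2. A second Bgn probe, at r = 0.18 with the first and above background on 8 arrays, gave 0.003 for HQR minus HFD and 0.46 for HR minus HFD.

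Glycoproteins connect cells with the fibrils. Fn1, fibronectin, also made by hepatocytes, averaged 3.90 ± 0.21 in HQR, 3.92 ± 0.38 in HQ, 3.95 ± 0.29 in HR, 3.86 ± 0.44 in HFD and 4.18 ± 0.28 in SD livers (SD), with an HFD minus SD difference of -0.32 ± 0.21 (SE, 95% interval -0.75 to 0.11, adjusted p = 0.925), and of -0.21 without HFD replicate 3. Sparc averaged 1.17 ± 0.71 in HQR, 1.29 ± 0.51 in HQ, 1.56 ± 0.60 in HR, 1.28 ± 0.26 in HFD and 0.74 ± 0.72 in SD livers (SD), and its HR minus SD difference was 0.82 ± 0.34 (SE, 95% interval 0.12 to 1.52, adjusted p = 0.746). A second Sparc probe, at r = 0.80 with the first, gave 0.48 for HFD minus SD against 0.54 with the first, which gave 0.38 without SD replicate 1 and 0.85 without SD replicate 3. Thbs1, thrombospondin 1, an activator of latent transforming growth factor beta, was dim (above background on 18 of 28 arrays). It averaged -3.98 ± 0.54 in HQR, -3.92 ± 0.59 in HQ, -3.93 ± 0.53 in HR, -4.19 ± 0.73 in HFD and -3.88 ± 0.68 in SD livers (SD) and differed by -0.31 ± 0.36 (SE, 95% interval -1.05 to 0.44, adjusted p = 0.958) between HFD and SD livers, with -0.54 without HFD replicate 5 and -0.04 without SD replicate 5. Postn, periostin, was at 0.96 in HQ replicate 1 and between -2.04 and -0.78 in the other HQ livers. The elastic fibre genes Fbn1 and Eln differed by -0.01 ± 0.44 and -0.11 ± 0.25 (SE) between HQ and HFD livers, and the sign of each turned when 1 array was left out.

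**Figure D4:**
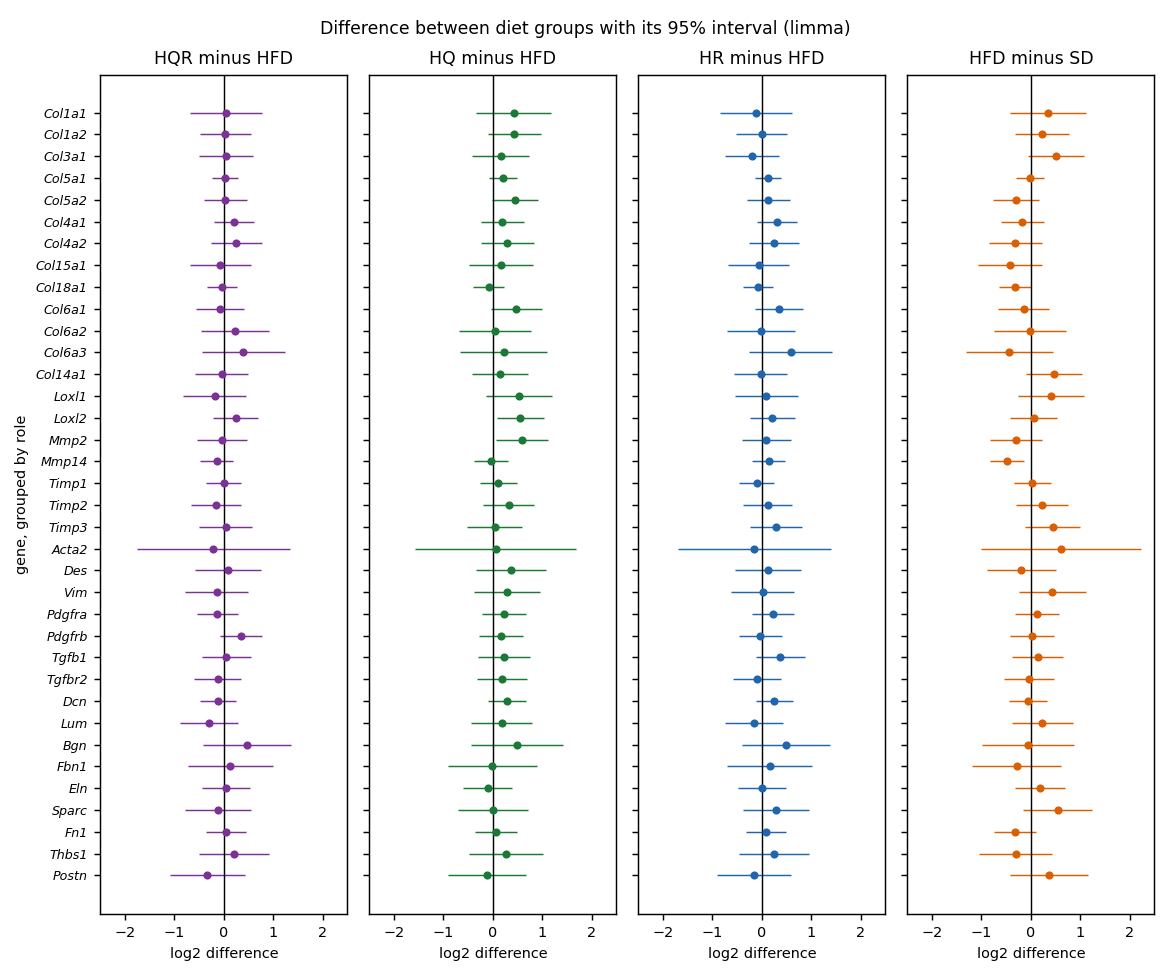
Log2 difference of each of the 36 genes (rows, grouped by role) with its 95% interval in 4 comparisons: HQR minus HFD, HQ minus HFD, HR minus HFD and HFD minus SD. In HQ minus HFD 31 points lie to the right of 0, and most intervals in every panel include 0.

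Over the set, supplements were compared by the number of genes above 0, without a call in any of them. In HQ against HFD 31 of 36 genes were above 0, against 48.9% of all genes, with a median of 0.20 in the set and -0.01 over all genes. An unadjusted p under 0.05 was reached by 2 of 36 (Loxl2 and Mmp2), against 2.13% of all genes. Without HQ replicate 1 and HR replicate 1, the livers with the highest mean of the set (chosen after seeing the data), 26 genes were above 0 and the median was 0.13. On both slides that held HQ and HFD livers the median was above 0, at 0.23 and 0.30. Each of these slides set 1 liver against 1: HQ replicate 1 against HFD replicate 1, and HQ replicate 5 against HFD replicate 4. With normexp background correction the median of all genes moved to 0.25 in this comparison and that of the set to 0.28, so that the set lay 0.03 above all genes. Genes share their livers and went together, so that the count of 31 is not a count of independent changes.

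In HR against HFD 23 of 36 genes were above 0, against 52.1% of all genes, with a median of 0.10. The count was 19 and the median 0.03 without HR replicate 1, and the count was 31 with the mean of all probes. An unadjusted p under 0.05 was reached by 0 of 36 in HR against HFD (4.91% of all genes) and 0 of 36 in HQR against HFD (1.36%). In HQR against HFD 19 were above 0, against 58.3% of all genes, with a median of 0.03. This count was 10 with scaling to the array median and 25 with the mean of all probes, and the median lay between -0.05 and 0.06 with 1 array left out. Relative to normexp's shift of all genes (0.17 in HR against HFD and 0.09 in HQR against HFD) the set's median was -0.05 and -0.07. For the mean of the 3 supplemented groups against HFD, 29 were above 0, against 53.9% of all genes, 0 had an unadjusted p under 0.05 (3.44% of all genes) and 0 passed (0.0045%). The smallest p-values in that comparison were those of Loxl2 (0.34 ± 0.18, SE), Col4a1 (0.24 ± 0.16), Bgn (0.48 ± 0.36, or 0.75 without HFD replicate 5) and Col6a1 (0.25 ± 0.19), each with an adjusted p of 0.997. These comparisons share the 6 HFD arrays.

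HFD against SD split the set evenly: 18 of 36 genes were above 0, against 44.8% of all genes, with a median of 0.00. With 1 array left out the count lay between 15 and 22. Only Mmp14 had an unadjusted p under 0.05, against 6.2% of all genes. For all 4 high fat groups together against SD, 24 were above 0, against 44.6% of all genes, and 6 had an unadjusted p under 0.05, against 7.18% of all genes. Against SD, 28 genes were above 0 in HQ (42.1% of all genes), 22 in HR (42.9%) and 20 in HQR livers (51.3%). On the 2 slides that held HQ and SD livers the set's median was -0.13 and 0.67, with 11 and 29 genes above 0. On the 3 slides with HR and SD livers it lay between -0.34 and 0.48, above 0 on 1. On the 3 with HQR and SD livers it lay between -0.01 and 0.43, above 0 on 2. With normexp the median in HQ against SD was 0.19 over all genes and 0.35 in the set. An unadjusted p under 0.05 was reached by 8 in HQ (3.87% of all genes), 3 in HR (5.7%) and 2 in HQR livers (6.41%). Calls over all genes were 0.036% in HQ against SD, 0.0585% in HR against SD and 0.0719% in HQR against SD.

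Between the supplements, 7 of 36 genes were above 0 in HQR against HQ, against 57.4% of all genes, with a median of -0.19. In HQR against HR 10 were above 0, against 56.2% of all genes, and in HQ against HR 26, against 48%. An unadjusted p under 0.05 was reached by 4 in HQR against HQ (1.43% of all genes), 1 in HQR against HR (2.78%) and 0 in HQ against HR (1.29%). All genes had 0% of calls in each of these 3 comparisons. The count for HQR against HQ was 15 without HQ replicate 1 and that for HQR against HR was 17 without HR replicate 1. At the same dose, 0.4% of the diet, HQ and HR livers differed by 0.50 ± 0.26 (SE, 95% interval -0.02 to 1.03, adjusted p = 1.00) in Mmp2, the smallest p of the set in that comparison. HQR carried 0.2% of each compound, HQ and HR 0.4% of 1 compound, so the pairs with HQR differ in dose as well as in compound.

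**Figure D5:**
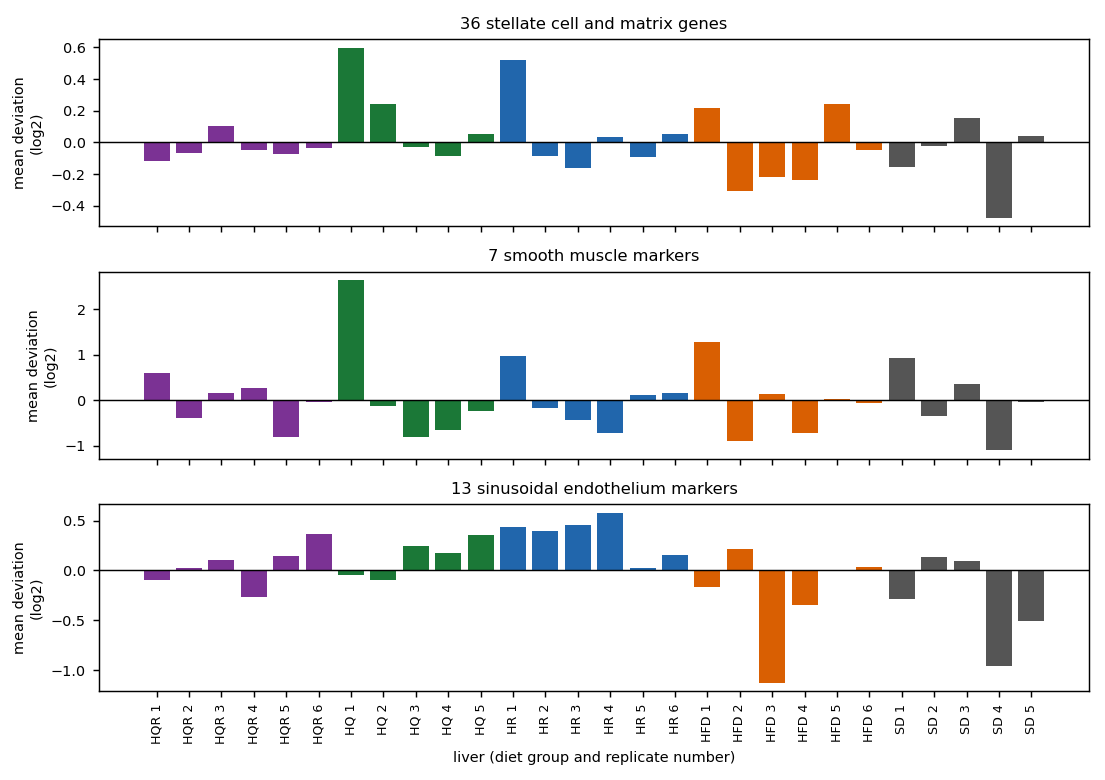
Mean deviation from the genes' own means (log2) in each liver, by diet group and replicate number, for the 36 genes, for 7 smooth muscle markers and for 13 sinusoidal endothelium markers. HQ replicate 1 (0.60) and HR replicate 1 (0.52) are highest for the set, and HQ replicate 1 is highest for smooth muscle markers (2.63).

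Some livers stood apart over many of the genes at once. The mean deviation of the 36 genes lay between -0.12 and 0.10 in HQR, -0.08 and 0.60 in HQ, -0.16 and 0.52 in HR, -0.31 and 0.24 in HFD, and -0.48 and 0.15 in SD livers. HQ replicate 1 and HR replicate 1 stood at the top. HQ replicate 1 kept 0.50 without Acta2, and HR replicate 1 had markers of adipocytes at 1.58, of smooth muscle at 0.97, of Kupffer cells at 0.84 and of portal fibroblasts at 0.70. Of 6 adipocyte markers 4 could be tested, and only 1 was well above background on all 28 arrays. SD replicate 4 stood at the bottom of the set, with markers of hepatocytes at 1.07 and of sinusoidal endothelium at -0.96. Hepatocyte markers were at -0.56 in HQ replicate 1 and -0.46 in HR replicate 1. They were at 0.91 in SD replicate 3, which stood at 0.15 for the set. The part of these cell types in the means of the set was not tested. Differences among diet groups took 17.3% of a gene's variance at the median of the set and 10.1% over all genes, where 14.8% is the share with no difference. Differences among slides took 40.3% in the set and 51.2% over all genes, where 29.6% is the share with no difference. Mmp14 had the largest share between diets, 45.9%.

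Markers of other liver cells moved in some of the same comparisons. The 13 sinusoidal endothelium markers were all above 0 in each of 3 comparisons with HFD, with a median of 0.26 in HQR, 0.33 in HQ and 0.56 in HR, and none passed. An unadjusted p under 0.05 was reached by 8 of the 13 in HR against HFD (4.91% of all genes) and by 0 in the other two. Their summed linear level ranged over 63.3 to 114 in HQR, 67.95 to 108 in HQ, 78.6 to 125 in HR, 36.9 to 93.0 in HFD and 47.6 to 102 in SD livers. Their mean deviation was -1.13 in HFD replicate 3 and between -0.35 and 0.21 in the other HFD livers. The 3 comparisons share the HFD arrays, so they are not independent. Kupffer cell markers were above 0 for 8 of 9 in HQR, 7 of 9 in HQ and 9 of 9 in HR against HFD, with medians of 0.35, 0.17 and 0.54, and their summed level ranged over 16.6 to 34.98 in HQR, 16.4 to 31.9 in HQ, 21.1 to 45.1 in HR, 10.7 to 22.4 in HFD and 18.4 to 48.4 in SD livers. The mean deviation of the Kupffer cell markers was -0.91 in HFD replicate 3 and between -0.29 and 0.15 in the other HFD livers. Most hepatocyte markers lay on the other side of 0 in these comparisons. Of 8 hepatocyte markers, 3 were above 0 in HQR, 3 in HQ and 1 in HR against HFD. Their medians were -0.20 in HQR, -0.27 in HQ and -0.31 in HR, and none passed. The part of these cell types in the differences of the matrix genes was not tested.

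Lists of related genes, each searched in every comparison between groups, gave 1 call. Among 13 laminins and other basement membrane proteins, Lama3, a chain of the laminin of epithelial basement membranes, was lower in the high fat groups together than in SD livers, with a difference of -1.05 ± 0.22 (SE, adjusted p = 0.0441). It averaged -0.47 ± 0.25 in HQR, -0.29 ± 0.24 in HQ, -0.75 ± 0.79 in HR, -0.70 ± 0.43 in HFD and 0.50 ± 0.22 in SD livers (SD), and the lowest SD liver (0.23) was above the highest liver of the other groups (0.04). Groups lay apart in that direction for 0.027% of all genes, and 0.162% of all genes (36 of 22241) passed in the same comparison. The call held in 15 of 43 alternative settings, with adjusted p between 0.00509 and 0.642. With the mean of all probes of the gene the difference was -0.38, and without any 1 of the 5 SD arrays the difference lay between -1.12 and -0.99 and the adjusted p between 0.0798 and 0.129. Of the 13 genes on the list, 12 were above 0 in HQR, 12 in HQ and 11 in HR against HFD, without a call, with medians of 0.16, 0.28 and 0.31.

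The other lists had 0 calls in any of the comparisons, where between 0% and 0.162% of all genes passed. In HFD against SD, 13 of 25 genes of transforming growth factor beta signalling were above 0, 7 of 18 collagen processing enzymes, 7 of 12 other collagens and 9 of 13 further stellate cell markers. In HQ against HFD these were 18, 14, 5 and 10, and in HR against HFD 17, 11, 3 and 11. Bmp1, the protease that removes the C-terminal propeptide of fibrillar collagens, had a difference of -0.80 ± 0.25 (SE, adjusted p = 0.462) in HFD against SD. P4ha1, a collagen prolyl hydroxylase, had 0.76 ± 0.25 (SE, adjusted p = 0.761) in HR against HFD. Bambi, a decoy receptor for transforming growth factor beta, had 0.42 ± 0.21 (SE, adjusted p = 1.00) in HQ and 0.42 ± 0.20 (SE, adjusted p = 1.00) in HR against HFD.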

How the data were processed

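Liver RNA of 28 mice was hybridised with Cy3 to 1-colour Agilent arrays, 1 array per mouse. The deposited scanner files hold intensity values, extracted with Feature Extraction 10.5, with probe positions on build mm9 and a background-subtracted processed signal, per the file headers. The deposited value table holds a score per probe, with column medians between -0.169 and -0.0992. It followed the log2 scanner values of the same array upward (r at least 0.9999), how it was scaled and centred is not stated, and it served as an alternative after multiplication by 3.2458, the median SD of the scanner values.

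From the files, log2 of the processed signal was taken minus each array's 75th percentile. Control spots were left out, spots of a probe were averaged, and probes well above background on at least 5 of 28 arrays were kept (32073 probes, 22241 genes). The brightest kept probe stood for a gene. All 5 groups were fitted in 1 model with limma 3.58.1 in R 4.3.3, with Benjamini-Hochberg adjustment over 22241 genes, two-sided, at an adjusted p of 0.05. The fit was run on simulated data with independent noise for each gene and no slide effects. That run cannot show how the fit behaves with the differences among slides in these arrays. RefSeq promoters are of GRCm38.p6.

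Genes were named by a rule: a fixed set of 21, the 4 with the smallest p in each of 5 comparisons, and at most 2 per other list and comparison unless called. The members and lists were chosen with earlier results of these data known. Same-numbered livers had r above 0 in every pair only in HFD and SD (5 pairs, r 0.217 to 0.697). In the other 9 pairs of groups r had both signs and reached 0.695 (HQR and SD). The labels do not say what a number shares. HFD and SD replicates 1 lay on the same slide, and so did HFD and SD replicates 2. Alternatives changed the background correction, scaling, filter, probe choice, value source, variance model, slide or scan day as a block, the replicate block, and the arrays included. The number of arrays limits the precision.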

Additional observations from a re-analysis of the deposited data

Results flagged for a closer look

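Of 185 sets of values (a gene or the mean of the genes, in 1 group), 11 held a liver far from the others of its group by Dixon's test at 95%, where chance gives about 1 in 20. Acta2 was at 5.01 in HQ replicate 1, and the next HQ liver was at 0.97. The mean deviation of the 36 genes was 0.52 in HR replicate 1, and the next HR liver was at 0.05. Col1a1 was at -0.11 in SD replicate 4 (nearest 1.12) and at 0.40 in HQR replicate 4 (nearest 1.31). Dcn was at 5.50 in HQR replicate 4 (nearest 6.00). HQR replicate 1 was high in Col4a2, at 0.0212 (nearest -0.59), and low in Tgfbr2, at -1.97 (nearest -1.06). Sparc was at 1.98 in SD replicate 3 (nearest 0.61), and Des at -2.04 in SD replicate 5 (nearest -3.05). Pdgfra was at -1.71 in HFD replicate 6 (nearest -1.23), and Eln at -3.17 in HQ replicate 4 (nearest -2.2996).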

How the results depend on the processing

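In 43 alternative settings, 28 of which left out 1 array, 0 of the 36 genes passed in any comparison, and the smallest adjusted p was 0.0636 (Mmp14, HQR against SD, slide as a random block). Of 1614 alternative values for the 58 gene differences printed, 34 had the opposite sign, in 6 differences: Acta2, Fbn1 and Eln in HQ against HFD, Timp1 and Des in HFD against SD and Mmp14 in HQR against HFD. Leaving out 1 array moved 24 of the 58 by more than 1.5 times, and gave -0.87 to 0.50 for Acta2, -0.21 to 0.27 for Fbn1, -0.18 to 0.0781 for Eln, -0.0666 to 0.0987 for Timp1 and -0.38 to 0.0409 for Des. Acta2 was -0.87 without HQ replicate 1 and HR replicate 1, -0.0006 and -0.0561 with slide as a block and as a random block, and -0.0289 without slide 8. Fbn1 was 0.0117 with median scaling, 0.60 with normexp, 0.19 with the mean of all probes, 0.22 and 0.0944 with slide as a block and as a random block, 0.18 with scan day as a block, 0.11 with the replicate block and 0.27 without slide 8. Eln was 0.38 with normexp, 0.0006 with scan day as a block and 0.0103 without slide 8. Timp1 was -0.0005 with normexp and -0.47 with the mean of all probes. The latter value lies outside the differences of its brightest probe (0.03) and of its other kept probe (-0.38). Spots flagged as outliers were left out, so the mean of a liver could rest on 1 probe of unlike brightness. The -0.47 is therefore not an average of the differences of the probes. Mmp14 was 0.0093 with the mean of all probes and 0.0174 without slide 8. For HQR against HFD the count of 19 became 10 with scaling to the array median, 12 with slide as a random block and 25 with the mean of all probes. For HR against HFD the count of 23 became 31 with the mean of all probes. For HQR against HQ the count of 7 became 13 with the mean of all probes, 4 with slide as a block, and 15 without HQ replicate 1 and HR replicate 1 (chosen after seeing the data); leaving out 1 array gave 4 to 15. For HQR against HR the count of 10 became 6 with median scaling, 6 with slide as a block and 17 without those 2 livers; leaving out 1 array gave 8 to 17. The causes were not tested. With the replicate block, 0 of the 36 genes passed in any comparison; in HFD against SD, Mmp14 stood at -0.48 with an adjusted p of 0.441. Dim genes such as Col6a3 and Thbs1 are limited by signal close to background, and Lox could not be tested.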
